A study of Homo sapiens with 12 samples.

Results

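The polyadenylated RNA of HCT116 cells that lack both ANKRD52 and CSNK1A1, the gene of casein kinase 1 alpha, was compared with that of HCT116 cells that lack ANKRD52 alone. The first genotype is called the double knockout. These 2 groups hold 3 libraries each, 6 of the 12 in the series, and were chosen by genotype. The other 6 libraries are the parental line and an AGO2 knockout. HCT116 is an established human colorectal carcinoma line with a CTNNB1 allele that lacks a serine phosphorylated by casein kinase 1. All cells were harvested 48 hours after seeding, and no agent is named in the labels. Both groups carry the ANKRD52 knockout, so a difference between them goes with the loss of CSNK1A1, or with anything else by which the 2 lines differ. The labels do not say whether a line is 1 clone, or whether the 3 replicates are separate cultures, so every p-value here rests on the spread among libraries, and that spread could be technical.

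Casein kinase 1 alpha primes beta-catenin for destruction in a complex with AXIN, APC and GSK3, and its loss is known to raise Wnt target genes in the gut. It also restrains p53 through MDM2 and MDM4. On Argonaute 2, the protein that microRNAs guide to messages, casein kinase 1 alpha adds phosphates and the PP6 phosphatase with its ANKRD52 subunit removes them. The title of the study names this phosphorylation cycle, and the comparison asks what a further loss of the kinase does in cells without the phosphatase subunit.

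The values start from 3 tables of the authors' fold changes against the parental line, so no library has a value of its own here, the depth of each library is unknown, and overlap between single libraries could not be examined. The difference between the groups is the log2 fold change in the double knockout less that in the ANKRD52 knockout, and the parental level drops out. Its standard error (SE) was rebuilt from the deposited likelihood ratios for 3 libraries a group, and a two-sided normal test with Benjamini-Hochberg adjustment was run over the 11877 of 12756 genes with a mean log2 CPM (counts scaled to library size) of at least 1. A gene was called at an approximate adjusted p under 0.05, and "rose" and "fell" are used only of called genes. Counts in gene lists were recomputed with a Student t with 8 degrees of freedom, called the Student t below, and with the sum of both squared SEs in place of their mean, called the sum. The recomputed count stands beside a list where it differs by more than 1.5 times. Levels are group means in CPM, implied by the mean level and the 3 fold changes. CPM is not scaled to gene length, so levels are compared between groups and not between genes.

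Loss of CSNK1A1 on the ANKRD52 background went with a wide change of the transcriptome: 2152 genes rose (18.1% of those tested) and 1941 fell (16.3%), while the median difference of all genes was -0.0033 on the log2 scale. The median rise was 1.54-fold and the median fall 1.37-fold. Rises were larger than falls, as 586 genes (4.93%) rose and 249 (2.1%) fell by at least 1 on the log2 scale. At least 16-fold rises numbered 57 and falls of that size 7. At an unadjusted p under 0.05 there were 5100 genes. Counts within gene lists are set against these shares. Of the tested genes 181 lay under a mean of 2 CPM in the 2 groups not compared, the parental line and the AGO2 knockout, and so passed the expression filter through the compared groups. Of these 109 rose and 10 fell, and among the other 11696 genes 17.4% rose and 16.5% fell. In the gene lists such members were SP5, HAS2, SPARC, CTGF, ANKRD1, IRF7, GLI3, MUC13, PMEPA1 and LYZ, and where one of them rose the filter favoured that rise. The same holds outside the lists, also for several of the at least 16-fold rises, which are named below. The median difference of every chromosome lay between -0.061 and 0.051.

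**Figure D1:**
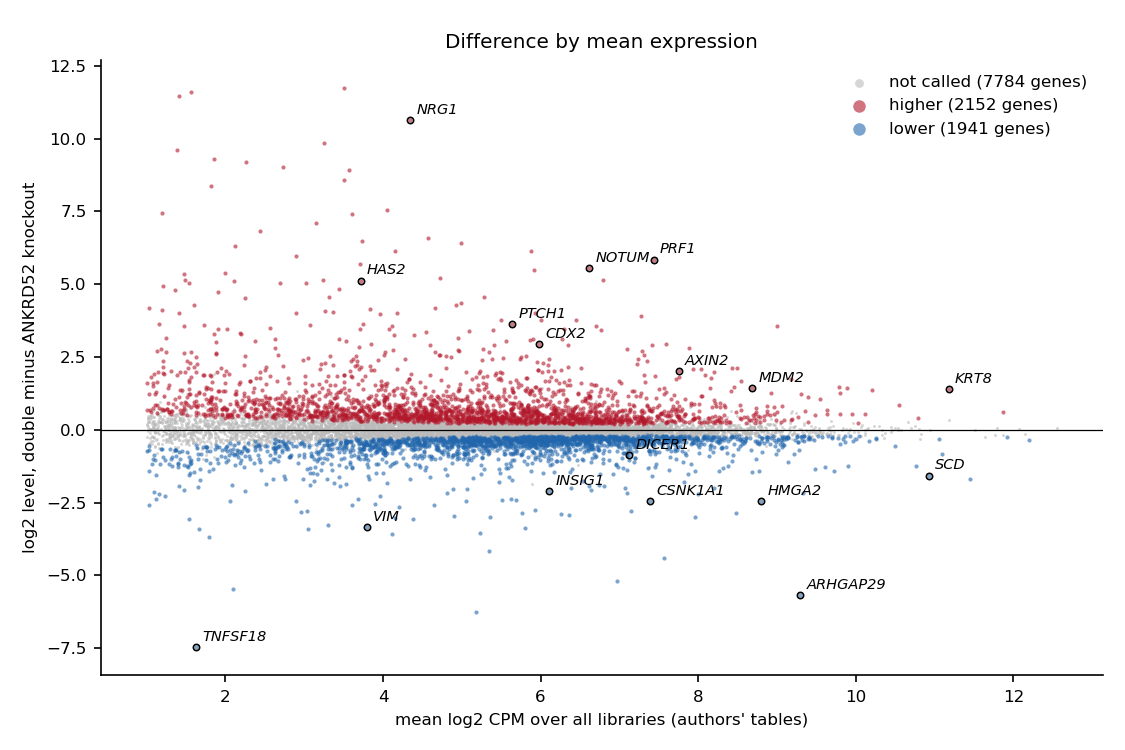
Log2 difference between the double and the ANKRD52 knockout (vertical) against the authors' mean log2 CPM (horizontal) for 11877 genes, with 2152 called higher in red, 1941 called lower in blue and the rest in grey. Rises reach farther from 0 than falls, and the genes ringed in black are described in the text.

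Both targeted genes were examined first. CSNK1A1 stood at 204 CPM in the parental line, 209 without ANKRD52 and 38.2 in the double knockout, which left 18.3% of the ANKRD52 knockout's level (difference -2.45, SE 0.34, approximate adjusted p = 3.10e-11). ANKRD52 had 155 CPM in the parental line and 159 in its own knockout, so its RNA level does not check that label. In the double knockout it fell to 98.9 CPM (difference -0.69, SE 0.14, approximate adjusted p = 8.92e-06). RNA of an edited gene can persist, and protein was not measured here.

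Of the 7 other casein kinase 1 genes measured 2 fell and 0 rose. These 2 were CSNK1A1P1, a pseudogene (5.72 to 0.13 CPM), and CSNK1A1L, an intronless copy (23.1 to 2.82 CPM). Both resemble CSNK1A1 in sequence and can share its reads, so their values are uncertain. The other kinases of the family had differences of 0.057 for CSNK1D (SE 0.10), 0.27 for CSNK1E (SE 0.12), 0.16 for CSNK1G1 (SE 0.083), -0.15 for CSNK1G2 (SE 0.091) and 0.13 for CSNK1G3 (SE 0.081). None of these 5 was called, and the smallest approximate adjusted p among them was 0.0708, for CSNK1E. FAM83 proteins bind casein kinase 1 alpha and place it in the cell. FAM83B rose from 17.5 to 71.4 CPM and FAM83H, the keratin-bound member, from 143 to 259.6 CPM. FAM83D, the spindle member, fell from 114 to 97.6 CPM, and FAM83F and FAM83G were not called. The fall of FAM83D was called neither with the Student t nor with the sum.

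In the PP6 phosphatase 4 of 7 genes fell and 0 rose, with a median difference of -0.38. The catalytic subunit PPP6C went from 106 to 81.9 CPM (approximate adjusted p = 6.12e-05). The scaffold PPP6R2 had a difference of -0.56, and ANKRD44, a sister of ANKRD52, fell from 9.34 to 4.45 CPM. The fourth was ANKRD52. The other subunits, PPP6R1 (-0.16), PPP6R3 (-0.092) and ANKRD28 (-0.011), were not called.

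Among 13 microRNA biogenesis and Argonaute genes 5 fell and 1 rose. DICER1, which cuts microRNA precursors, stood at 99.5 CPM in the parental line, 188 without ANKRD52 and 102 in the double knockout (difference -0.88, SE 0.092, approximate adjusted p = 1.47e-19). The TNRC6 proteins bind Argonaute and recruit the deadenylation machinery. TNRC6A went from 217 to 132 CPM, TNRC6B from 181 to 126 and TNRC6C from 88.1 to 69.6. All 3 fell, and their parental levels were 140.0, 135 and 66.3 CPM. Parental levels are given for description only, since the change from the parental line to the ANKRD52 knockout and the change from there to the double knockout share the ANKRD52 libraries. PRKRA, a partner of DICER1, differed by -0.31, and the nuclear enzyme DROSHA rose by 0.24. With the Student t 4 genes of the list fell and 0 rose, and with the sum 3 fell and 0 rose. The Argonautes themselves were not called: AGO1 differed by -0.098 (SE 0.089), AGO2 by -0.35 (SE 0.35), AGO3 by -0.18 (SE 0.11) and AGO4 by -0.0025 (SE 0.10). XPO5, DGCR8 and TARBP2 had differences of -0.092, -0.035 and -0.084 and were not called either. Downstream, 4 of 23 deadenylation and decapping genes fell and 0 rose, near the share over all genes. They were the decapping enzyme DCP2 (146 to 103 CPM), the exonuclease XRN1 (-0.34), the deadenylase CNOT6L (-0.34) and EIF4ENIF1 (-0.27). Of these 2 fell with the Student t and 1 with the sum.

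Known targets of microRNAs that are abundant in epithelial cells came next. Let-7 and the miR-200 family were followed because their classical targets bear on growth and on epithelial identity. A microRNA finds its targets mainly through its seed, bases 2 to 8, given in capitals in these mature sequences from RefSeq (GRCh38.p14).
hsa-let-7a-5p: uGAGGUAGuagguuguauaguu
hsa-miR-200b-3p: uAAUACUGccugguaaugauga
List members were chosen as known targets, so seed matches in their 3' UTRs go with that choice and do not test the falls. List members that were not called were not compared for matches. HMGA2, DICER1, IGF2BP2, ZEB1, QKI and CFL2 were picked from the list members that fell, and serve as examples only. One match of each is shown within 30 bases of the GENCODE release 29 transcript (GRCh38), 5' to 3' on the gene's strand, with the bases that pair with the seed and, where present, the A after them in capitals.
HMGA2, let-7, chr12:65963301-65963330, plus strand: aacgttcgatttCTACCTCAgcagcagttg
DICER1, let-7, chr14:95089124-95089153, minus strand: tcttcacttaaaTACCTCAgttcttctttt
IGF2BP2, let-7, chr3:185644210-185644239, minus strand: acacagaagaagCTACCTCAggtgttttta
ZEB1, miR-200b, chr10:31527621-31527650, plus strand: gttttatcttatCAGTATTAtcactcttat
QKI, miR-200b, chr6:163573222-163573251, plus strand: tgccttggttctCAGTATTAtcattcttta
CFL2, miR-200b, chr14:34712466-34712495, minus strand: gtcaacttttttCAGTATTAtttatagttg
In the annotated 3' UTRs HMGA2 held 7 matches to the let-7 seed, DICER1 2 and IGF2BP2 2, while ZEB1 held 5 matches to the seed of miR-200b, QKI 4 and CFL2 6. THBS1, the let-7 target that rose, held 1 match to the let-7 seed, so a match did not go with a fall in every target.

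Of 15 let-7 targets 4 fell and 1 rose, with a median difference of -0.12. HMGA2, a chromatin protein of embryonic and tumour cells, stood at 243 CPM in the parental line, 830.0 without ANKRD52 and 151 in the double knockout (difference -2.46, SE 0.16, approximate adjusted p = 1.38e-49). IGF2BP2 and IGF2BP3, which bind messenger RNAs, went from 269 to 124 and from 216 to 47.8 CPM. In the parental line these 2 stood at 233 and 126 CPM. DICER1 was the fourth. THBS1, an extracellular matrix protein, rose from 17.2 to 110.3 CPM. Most of the list did not pass, among them NRAS (-0.16), CDC25A (-0.17) and HMGA1 (0.25).

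Of 15 miR-200 family targets 7 fell and 2 rose, with a median difference of -0.25. ZEB1, the transcription factor that represses epithelial genes, stood at 5.08 CPM in the parental line, 34.8 without ANKRD52 and 7.12 in the double knockout (difference -2.29, SE 0.53, approximate adjusted p = 1.46e-04). The actin regulator CFL2 and the splicing regulator QKI fell from 121 to 58.9 CPM and from 87.4 to 43.5 CPM. SEC23A (-0.63), the protease inhibitor RECK (-0.87), KLHL20 (-0.25) and the EGF receptor inhibitor ERRFI1 (-2.18) were the other falls. Not every fall was a return to the parental level. ERRFI1 stood at 923 CPM in the parental line, 701 without ANKRD52 and 154 in the double knockout, and CFL2 had 91.6 CPM in the parental line. Both exceptions were modest: MSN rose by 0.35 and PLCG1 by 0.29, and neither was called with the Student t or with the sum. For the miR-17 family 3 of 13 targets fell and 2 rose, and the rises were TNFRSF10B and CDKN1A, which are also on the p53 list. With the sum 1 of the miR-17 targets fell.

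Genes with and without a seed match differed little in their medians, and for let-7 and miR-200 the sign of that gap changed within classes of 3' UTR length. Among 11203 genes with a 3' UTR of at least 50 bases, the median difference of the 1895 genes with a let-7 site exceeded that of genes without one by 0.0057, and for the 2728 genes with a miR-200b site by 0.0077. Across 14 microRNA families that are common in epithelial cells this quantity lay between 0.000023 and 0.035, and across 5 families of other tissues, such as the liver's miR-122, between 0.0086 and 0.025. The share of genes that fell was 15.7% with a let-7 site and 16.7% without, and 17.4% with a miR-200b site and 16.3% without. With 8-base sites alone the range was -0.013 to 0.076 for the epithelial families and -0.014 to 0.028 for the others. Longer 3' UTRs went with slightly higher differences (rank correlation across genes 0.062), and genes are not independent replicates. The families were therefore also compared within the shorter and the longer 3' UTRs, divided at the median length. For let-7 the gap was -0.022 in the shorter 3' UTRs and -0.0020 in the longer ones, for miR-200b -0.020 and -0.011, and for miR-200a -0.031 and -0.0059. These 3 families thus had lower medians with a site in both classes. So did miR-19 (-0.012 and -0.0023) and miR-15/16 (-0.012 and -0.0017), so this was not particular to the 3. Among the shorter 3' UTRs the epithelial families ranged from -0.031 (miR-200a) to 0.053 and the others from -0.022 to 0.024. Among the longer ones the ranges were -0.017 to 0.022 and -0.015 to 0.017.

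**Figure D2:**
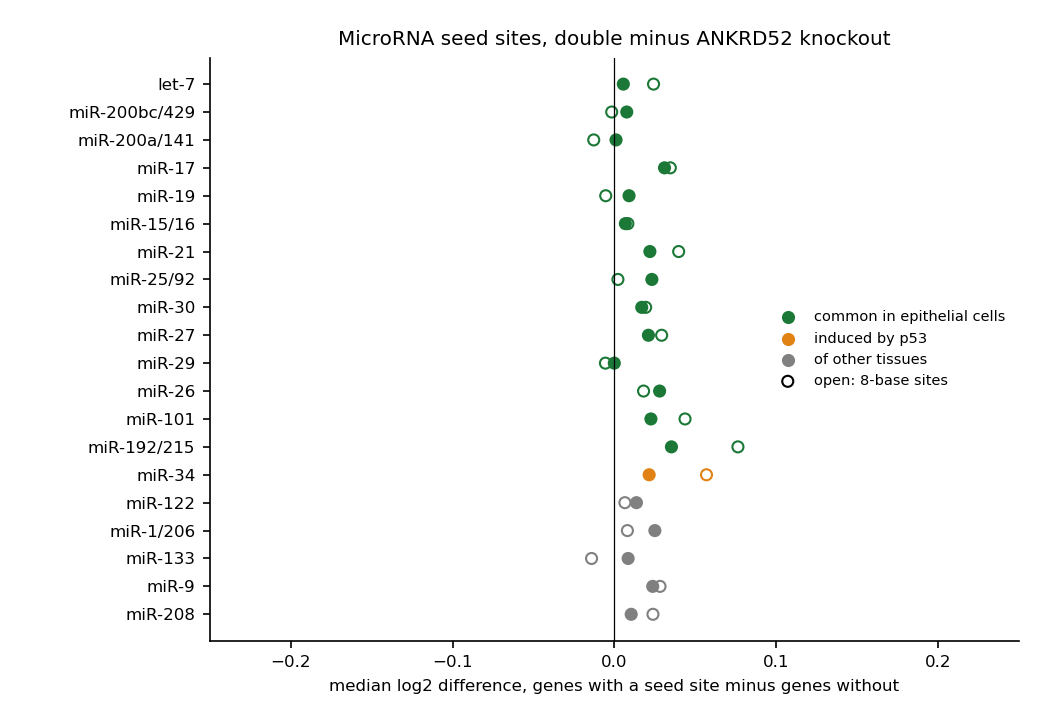
Median log2 difference of genes with a seed site less that of genes without, for 20 microRNA families (rows), with filled points for any site and open points for 8-base sites. Epithelial families (green) and families of other tissues (grey) both lie close to 0.

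Wnt/beta-catenin targets were higher as a list: 10 of 15 rose and 1 fell, with a median difference of 1.25. Among the feedback inhibitors, NOTUM, which removes the lipid from Wnt ligands, rose from 8.04 to 377 CPM, NKD1 from 20.4 to 173, and ZNRF3, which clears Wnt receptors, from 33.7 to 164 (difference 2.28, SE 0.15, approximate adjusted p = 7.24e-49). AXIN2, the scaffold of the destruction complex that Wnt signals induce, stood at 51.8 CPM in the parental line, 149.8 without ANKRD52 and 602 in the double knockout, so it was higher at each step. The transcription factors SP5 and TCF7 rose 7.07-fold and 2.11-fold, and the G1 cyclin CCND1 rose from 690.3 to 1641 CPM. SP5 passed the expression filter only through the compared groups, and without it 9 of 14 targets rose and 1 fell. EPHB3, TNFRSF19 and BMP4 completed the rises. The exception was the adhesion receptor CD44, which fell from 965 to 362 CPM. MYC (0.16, SE 0.31), RNF43 (0.35, SE 0.52), EPHB2 (0.18) and the Wnt antagonist DKK1 (-1.28, SE 0.56) were not called, and 6 further list members were not analysed here. Among the 8 genes of beta-catenin and its destruction complex 3 fell and 0 rose: CTNNB1 itself (-0.27) and the ubiquitin ligase subunits BTRC (-0.47) and FBXW11 (-0.22). Only 1 of the 3 was called with the Student t, and 1 with the sum.

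The promoter of SP5 is shown because it was the only one of 9 Wnt target promoters at hand that held the TCF/LEF letters ATCAAAG or, on the other strand, CTTTGAT. These letters were present in 1.22% of 8847 promoters of tested genes (250 bases before to 50 after the start, RefSeq). The 250 bases before the start of SP5 (GRCh38.p14, chr2:170715087-170715336, plus strand) follow, with the match in capitals.
SP5: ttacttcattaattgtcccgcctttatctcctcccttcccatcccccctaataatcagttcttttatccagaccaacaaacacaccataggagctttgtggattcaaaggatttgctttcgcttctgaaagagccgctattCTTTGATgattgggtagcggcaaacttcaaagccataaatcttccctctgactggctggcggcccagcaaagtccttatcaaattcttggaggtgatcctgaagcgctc

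In the p53 list 22 of 30 tested targets rose and 0 fell, with a median difference of 0.68. The antagonist MDM2 rose from 275 to 740.0 CPM (difference 1.43, SE 0.11, approximate adjusted p = 5.32e-36), and the cell cycle inhibitor CDKN1A from 158 to 299 CPM. The secreted GDF15 and the AKT inhibitor PHLDA3 rose most in fold, 5.46-fold and 5.38-fold. Rises spanned several arms of the response: apoptosis (BAX 0.85, FAS 0.75, TNFRSF10B 0.63), DNA repair (DDB2 0.82, RRM2B 0.67) and metabolism (SESN1 1.07, SESN2 1.01, C12orf5, also named TIGAR, 1.04). The apoptosis gene BBC3 (0.12, SE 0.17), the phosphatase PPM1D (-0.086, SE 0.083), XPC and PLK2 were among the 8 not called. MDM4, the partner of MDM2, was not called, at 64.1 and 66.3 CPM. Among 9 NF-kB and senescence secretory genes 4 rose and 0 fell, with BIRC3, ICAM1 and PLAUR among the rises, but none of these calls was kept: 0 genes of the list were called with the Student t and 0 with the sum.

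**Figure D3:**
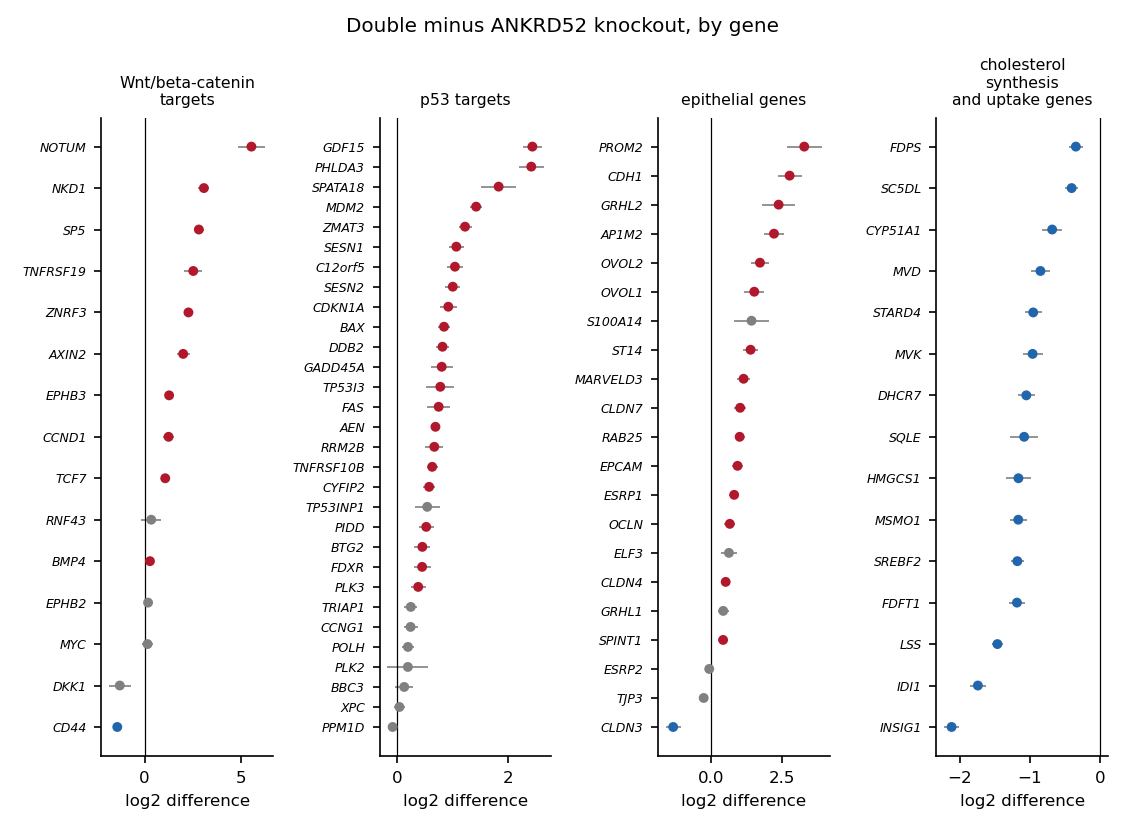
Log2 difference between the double and the ANKRD52 knockout for the tested genes of 4 lists, with bars for 1 approximate SE, red for genes called higher, blue for genes called lower and grey for genes not called. The Wnt, p53 and epithelial lists lie mostly above 0, and the 15 cholesterol genes drawn, of 19 tested, were called below 0. Of the other 4, which are not reported here by name, 3 were called lower and 1, the exception of the list, was not called.

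Of 19 cholesterol genes 18 fell, 0 rose and 1 was not called, with a median difference of -1.05 and a highest of 0.28. The falls ran along the pathway, from HMGCS1 (-1.16) through IDI1 (-1.74), FDFT1 (-1.18), SQLE (-1.08) and LSS (-1.46) to DHCR7 (-1.05). The sterol sensor partner INSIG1 went from 72.1 to 16.7 CPM (difference -2.11, SE 0.11, approximate adjusted p = 8.78e-85). SREBF2, the transcription factor of the pathway, fell from 261 to 115 CPM. Fatty acid genes followed, with 9 of 10 lower and 0 higher. The desaturase SCD fell from 2285 to 769 CPM, FADS1 from 157 to 63.5 and FASN from 1419.8 to 970.3, whereas FADS2 (0.066) was not called. For comparison, the parental line and the ANKRD52 knockout stood at 103 and 72.1 CPM for INSIG1.

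Of 20 mitosis genes 12 fell and 0 rose, with a median difference of -0.29, yet each fall was modest. CCNA2 (-0.49), KIF20A (-0.43), AURKA (-0.40), BUB1 (-0.40), CCNB1 (-0.35), CDC20 (-0.37) and PLK1 (-0.32) were among them, while CDK1 (0.038, SE 0.11), TOP2A (0.072) and MKI67 (-0.27, SE 0.22) were not called. Of 25 replication and licensing genes 3 fell and 2 rose, both smaller shares than over all genes. MCM5 (-0.65), MCM4 (-0.49) and E2F2 (-0.25) fell, and PCNA, which is also a p53 target, rose from 379.7 to 525 CPM, beside GINS4 (0.34). With the Student t 8 mitosis genes fell and with the sum 5, and in the replication list 2 fell and 1 rose with either. In G1, the inhibitors CDKN1B and CDKN2C fell by 0.73 and 1.24 on the log2 scale and CDK4 by 0.27, and CCND1 and CCND3 rose. Of these genes 2 fell and 1 rose with the Student t or the sum.

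Promoter letters did not follow the direction of the lists in a uniform way. The CCAAT box, searched as CCAAT or ATTGG, was present in 36.7% of all 8847 promoters, in 14 of 16 mitosis promoters and in 10 of 12 cholesterol promoters. It was also present in 15 of 20 replication promoters, whose genes mostly were not called, and in 13 of 16 promoters of the rising unfolded protein and amino acid stress list. In the falling fatty acid list it was present in 3 of 9. The cell cycle homology region, searched as TTTGAA or TTCAAA, was present in 9.03% of all promoters and in 10 of 16 mitosis promoters, but in 0 of 12 cholesterol promoters and 1 of 20 replication promoters. A sterol regulatory element, searched as TCACNCCAC on both strands, was present in 1.09% of all and in 1 cholesterol promoter, that of SREBF2. None of these motifs contains another. Over all genes that fell the CCAAT share was 38.2%, and over those that rose 33.9%. The 250 bases before the starts of PLK1 (GRCh38.p14, chr16:23678639-23678888, plus strand) and INSIG1 (chr7:155297628-155297877, plus strand) show both patterns, with the matches to the first 2 motifs in capitals.
PLK1: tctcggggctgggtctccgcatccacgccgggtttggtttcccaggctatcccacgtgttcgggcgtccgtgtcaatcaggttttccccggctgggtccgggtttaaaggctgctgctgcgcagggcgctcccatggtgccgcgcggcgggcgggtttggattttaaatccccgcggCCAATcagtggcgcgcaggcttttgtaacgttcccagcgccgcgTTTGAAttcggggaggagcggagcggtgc
INSIG1: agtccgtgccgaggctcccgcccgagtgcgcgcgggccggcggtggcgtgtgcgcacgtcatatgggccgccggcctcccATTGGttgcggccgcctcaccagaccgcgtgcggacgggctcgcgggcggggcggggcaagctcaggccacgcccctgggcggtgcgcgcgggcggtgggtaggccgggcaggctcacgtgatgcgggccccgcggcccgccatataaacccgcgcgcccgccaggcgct

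Epithelial genes were higher: 15 of 21 rose and 1 fell, with a median difference of 1.01. CDH1, the cadherin of epithelial junctions, stood at 114 CPM in the parental line, 45.4 without ANKRD52 and 312 in the double knockout (difference 2.78, SE 0.42, approximate adjusted p = 1.28e-09). AP1M2, a sorting adaptor of polarised cells, followed the same course at 95.3, 23 and 107 CPM, and so did the transcription factor GRHL2 at 52.8, 12.9 and 67.6. EPCAM rose 1.91-fold, the splicing factor ESRP1 1.76-fold and the protease ST14 2.63-fold, to 381, 256 and 262 CPM, where the parental line had 349, 276 and 213. CLDN3, a tight junction claudin, fell from 8.94 to 3.52 CPM although CLDN4 and CLDN7 rose. S100A14, ELF3, GRHL1, TJP3 and ESRP2 were not called. Markers of an epithelial line were all present, and KRT8, KRT18, KRT19, CDH1 and EPCAM rose in 5 of 5 cases. KRT8 went from 1666 to 4412 CPM.

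Mesenchymal genes did not move together: of 9 tested, 3 fell and 1 rose. The intermediate filament gene VIM stood at 1.81 CPM in the parental line, 39.2 without ANKRD52 and 3.87 in the double knockout (difference -3.34, SE 0.61). The receptor kinase AXL fell from 56.5 to 16.5 CPM, and ZEB1 was the third. HAS2, which makes hyaluronan, rose from 1.46 to 51 CPM and passed the expression filter only through the compared groups. SPARC, a matrix protein, had 0.323 CPM in the parental line but 84.7 and 92.9 in the 2 knockouts (difference 0.13, SE 1.12), so its level remained far above that of the parental line. FN1 (0.13, SE 0.27) and TGFB2 (1.20, SE 1.11) were not called, and the large errors of SPARC and TGFB2 allow differences of either sign. These errors were rebuilt from fold changes against the parental line, where SPARC had only 0.323 CPM. The error between the compared groups may therefore differ from them. Both groups are bulk cultures, so a change in the share of cells of one state and a change within every cell cannot be told apart.

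**Figure D4:**
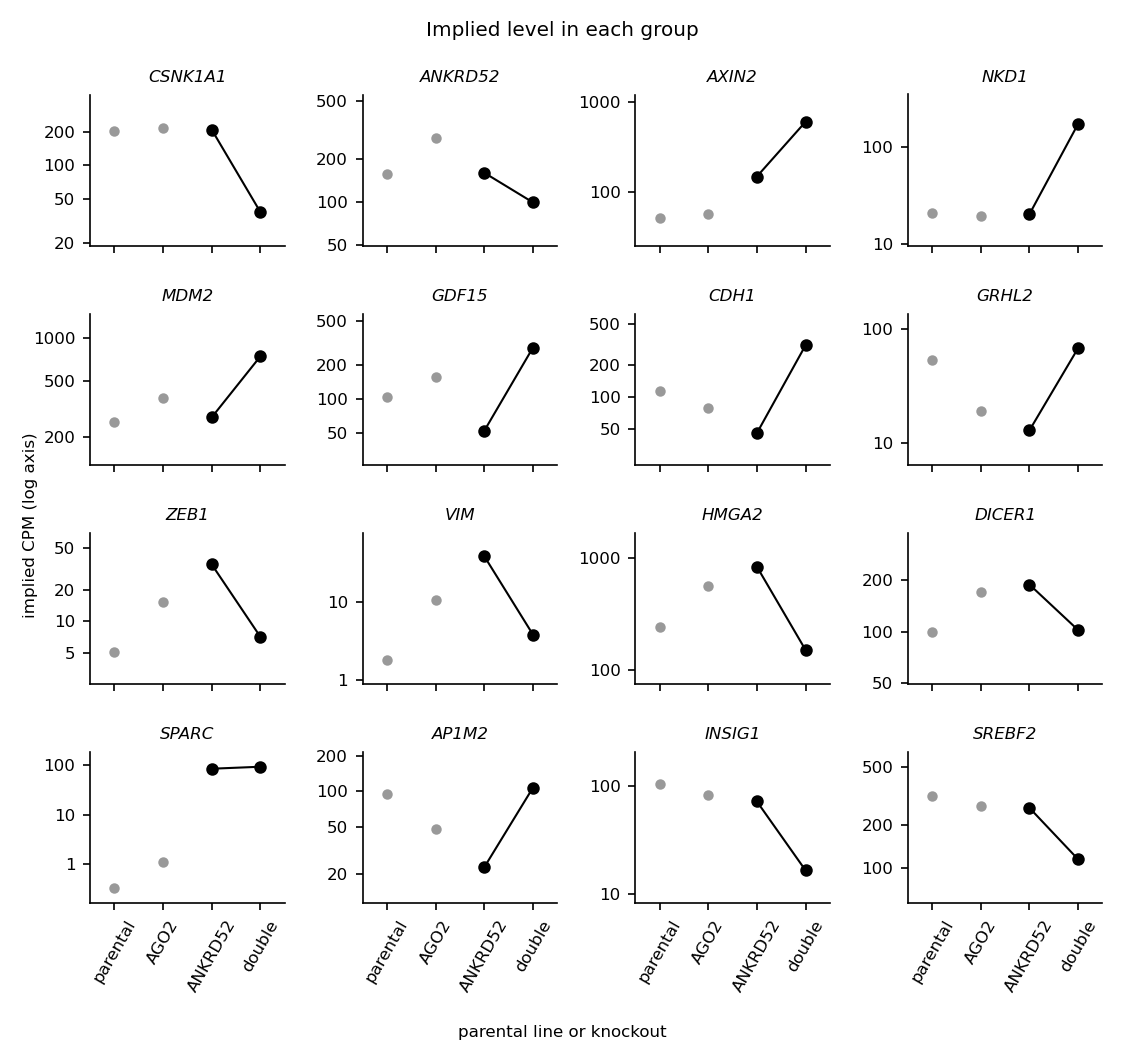
Implied CPM (log axis, own scale in each panel) of 16 genes in the parental line, the AGO2 knockout, the ANKRD52 knockout and the double knockout, with the compared pair in black joined by a line. CDH1, GRHL2 and AP1M2 rose from a level below the parental line, ZEB1 and VIM fell from one above it, and SPARC stood near 84.7 and 92.9 CPM in both.

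ZEB1 binds E-boxes, and the letters CACCTG or CAGGTG were present in 6 of 12 epithelial promoters (CLDN3, OCLN, RAB25, AP1M2, ELF3 and S100A14) against 18.4% of all promoters, 22.9% of those of genes that rose and 17.9% of those of genes that fell. The holders include CLDN3, which fell, and ELF3 and S100A14, which were not called. AP1M2 is shown since it held 3 matches before its start (GRCh38.p14, chr19:10587313-10587562, minus strand, matches in capitals).
AP1M2: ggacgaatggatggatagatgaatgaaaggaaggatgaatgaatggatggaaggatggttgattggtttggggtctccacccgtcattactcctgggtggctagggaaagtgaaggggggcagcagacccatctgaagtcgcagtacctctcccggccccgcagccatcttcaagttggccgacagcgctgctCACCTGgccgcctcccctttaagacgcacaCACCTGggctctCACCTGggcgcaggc

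Several intestinal and cell surface genes changed. CDX2, the transcription factor that specifies intestine, rose from 23.2 to 178 CPM (difference 2.94, SE 0.12, approximate adjusted p = 1.92e-130), HNF4A from 19.1 to 40.3, and the mucin MUC13 from 0.05 to 26. These were 3 of the 4 tested genes from a list of 21 intestinal genes, and the other 1 fell. MUC13 passed the expression filter only through the compared groups, and without it 2 of 3 rose. Of the rises between groups that both lay above 0.0346 CPM, the level of 3 reads over a group, the largest was NRG1, a ligand of ERBB receptors, at 0.0509 and 81 CPM. Next were the tetraspanin TSPAN8 (38.1 CPM in the double knockout), MUC13, ALPP (47.3), the integrin ITGB7 (44.9), ALPPL2 (14) and the ectodysplasin receptor EDAR (65.3), each at 0.344 CPM or less in the ANKRD52 knockout. ALPP and ALPPL2 are near-identical placental-type alkaline phosphatases, and their reads may be exchanged. GLI3, LCN2, PLEKHS1, EPS8L3, SLC6A20, BCL2L15, NEDD9, VTCN1, CEACAM1, NRP2, CAPN6, PRF1 and NR4A3 made up the rest of the 20 largest, with rises of 5.69 to 7.46 on the log2 scale. The perforin gene PRF1 reached 676 CPM from 11.8 and the semaphorin receptor NRP2 223 from 3.18. A further 6 genes rose from a level of the ANKRD52 knockout at or under that of 3 reads, and are given by level alone: CSMD3 reached 45.2 CPM, DSG3 19.1, KRT14 14.3, ARHGEF38 11.8, KMO 10.6 and KCNB2 10.4. These 6 lay under a mean of 2 CPM in the parental line and the AGO2 knockout. Of the 20 largest, so did at least MUC13, ALPP, ALPPL2, ITGB7, EDAR, GLI3, LCN2, EPS8L3, BCL2L15, CEACAM1 and CAPN6. The expression filter therefore favoured these rises.

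By the size of the test rather than of the change, the leading rises were DOCK4 (11 to 149.7 CPM, approximate adjusted p = 2.56e-134), a Rac exchange factor, CDX2, the glycosyltransferase A4GALT (12.8 to 204), the endoplasmic reticulum protein RCN1 (188 to 647) and NRG1. The leading falls were CSNK1A1P1, INSIG1, the GTPase regulator ARHGAP29 (886 to 17.4 CPM, approximate adjusted p = 5.06e-73), LSS and the connexin GJC1 (143 to 33.9).

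Among the largest falls TNFSF18, a cytokine of the TNF family, went from 9.99 to 0.0567 CPM, and the annexin ANXA10 from 24 to 0.314. CYP24A1, which degrades vitamin D, fell from 219 to 6.06 CPM, the nuclear receptor NR2F1 from 293 to 13.8 and the coagulation inhibitor TFPI from 62.7 to 3.51. SPOCK3, DPEP1, MALL, DRD1, HS3ST1, VIM, RAMP1, FLJ42709 and the transporter ABCC2 fell by 2.99 to 3.67 on the log2 scale, as did SSTR5 and its antisense gene SSTR5-AS1. The protocol is stranded, but the setting used in counting is not given in the sources used here, so reads of SSTR5 and SSTR5-AS1 may not be separated.

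Signalling lists were mixed. Of 6 hedgehog genes 2 rose, the receptor PTCH1 (12.5 to 155 CPM) and GLI3 (0.0515 to 9.05), while GLI1, the usual readout of the pathway, had -0.68 (SE 0.35) and was not called. GLI3 passed the expression filter only through the compared groups, and without it 1 of 5 rose, near the share over all genes. Of 15 ERK feedback genes 6 rose and 1 fell, led by SPRY1 (3.73 to 31 CPM), with ETV4 (0.97) and DUSP6 (0.78), and 2 rose with the Student t and with the sum. Of 13 TGF-beta and BMP feedback genes 4 rose and 3 fell. The TGF-beta inhibitors SMAD7 (2.26), BAMBI (3.11) and PMEPA1 (2.58) rose, whereas ID2 (-0.91) and ID3 (-1.12), known as BMP targets, fell and ID1 (-0.019) was not called. PMEPA1 passed the expression filter only through the compared groups, and without it 3 of 12 rose and 3 fell. Among 12 YAP/TEAD targets 4 rose and 2 fell, from ANKRD1 (5.23, SE 1.79) and CTGF (1.41) at one end to NT5E (-2.77) at the other. With the Student t and with the sum 1 rose and 1 fell, and without ANKRD1 and CTGF, which passed the expression filter only through the compared groups, 2 of 10 rose. Of 15 interferon-stimulated genes 6 fell and 0 rose, among them ISG15 (-0.87), OAS3 (-0.66) and IFIT1 (-0.89), and the sensor DDX58 (0.15) was not called. With the sum 3 fell.

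In the list for unfolded proteins and amino acid stress, 10 of 17 genes rose and 0 fell. ATF3 went from 14.8 to 47.9 CPM, CHAC1 from 3.59 to 20.7 and the cystine transporter SLC7A11 from 73.3 to 193, while the classical markers DDIT3 (0.11), TRIB3 (-0.22) and ASNS (0.17) were not called. In the autophagy and lysosome list 5 of 15 rose and 4 fell, the proteases CTSB (0.79) and CTSD (1.17) among the first and the cholesterol exporter NPC1 (-0.43) among the second, and with the sum 3 rose and 2 fell. Of 15 hypoxia and glycolysis genes 3 rose, near the share over all genes, and 1 fell, with the glucose transporter SLC2A1 at 616 and 1354 CPM. In that list 1 rose and 0 fell with the Student t or the sum. In the circadian list 5 of 14 fell, led by DBP (-1.14), and CLOCK alone rose (0.64). With the Student t 2 fell, and with the sum 1. Of 6 FOXO targets 1 fell, SESN3 (-2.03), and 1 rose, IRS2 (0.96), both near the shares over all genes. IRS2 was not called with the sum.

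**Figure D5:**
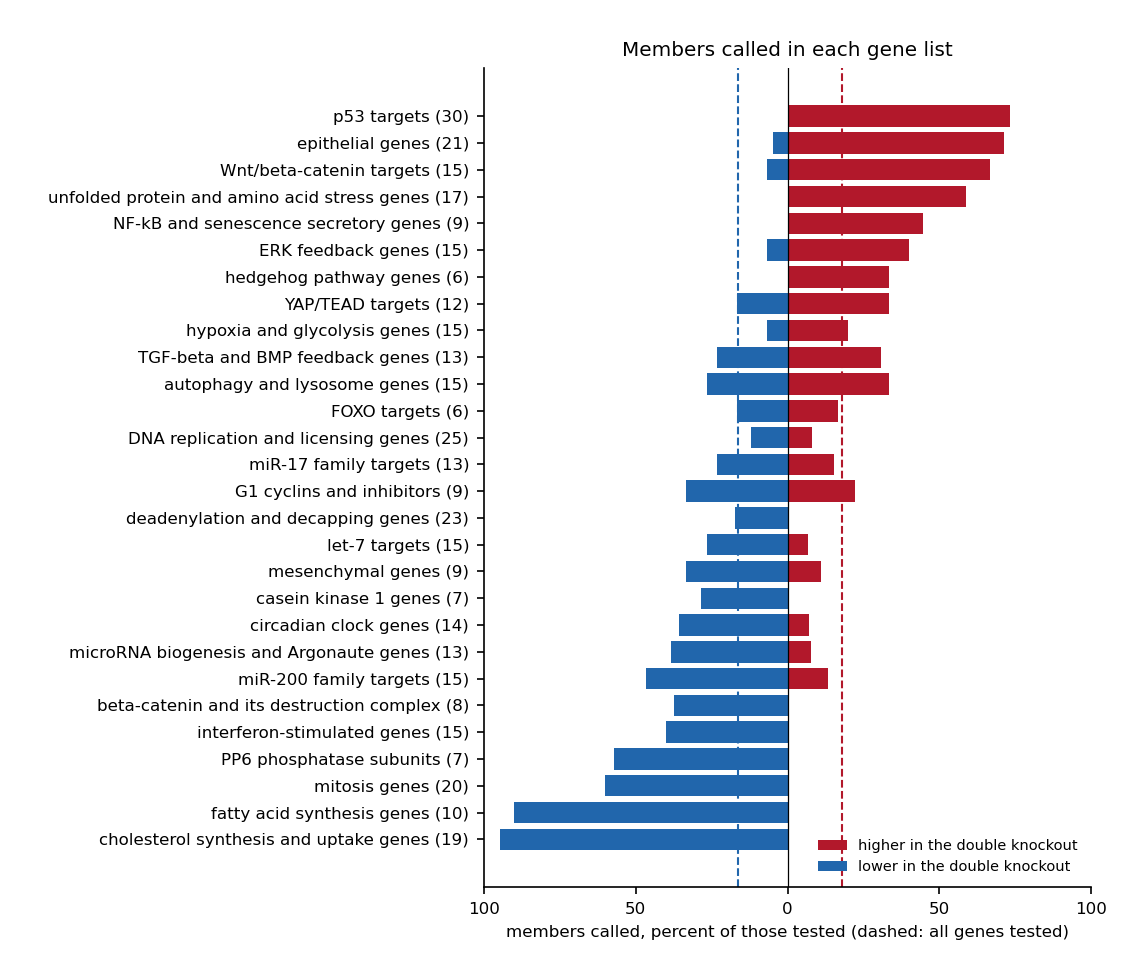
Percent of tested members called higher (red, to the right) and lower (blue, to the left) for the lists with at least 6 tested members, whose number is in brackets, with dashed lines at the shares over all genes, 18.1% and 16.3%. A list with 6 tested members, of which 0 rose and 0 fell, is not drawn and not reported here by name. The p53, epithelial and Wnt lists lie at the top and the mitosis, fatty acid and cholesterol lists at the bottom.

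Of 12 markers of other cell types, of blood, vessel, stroma, liver and islet, 3 were tested, 2 rose and 0 fell, VWF lay under the expression filter and 8 were not analysed here. The summed level of the 3 tested markers was 19.99 CPM in the ANKRD52 knockout and 38.6 CPM in the double knockout. LYZ, known from macrophages and secretory gut cells, rose from 0.279 to 8.63 CPM and the muscle actin ACTA2 from 7.32 to 15.9, and COL1A1 had 12.4 and 14.1 CPM. LYZ passed the expression filter only through the compared groups, and without it 1 of 2 rose. The part of these markers in the other differences was not tested.

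The AGO2 knockout against the parental line uses the remaining 6 libraries and so shares none with the double and ANKRD52 knockouts. Among the tested genes the authors' deposited table called 419 higher (3.53%) and 327 lower (2.75%) in that knockout. Of the 419 genes higher without AGO2, 116 (27.7%) fell and 75 (17.9%) rose with the loss of CSNK1A1, against 15.99% and 18.0% among genes not called in the AGO2 knockout. Of the 327 lower without AGO2, 45 (13.8%) fell and 73 (22.3%) rose. The genes higher without AGO2 that fell included HMGA2 (243 CPM in the parental line and 558 in the AGO2 knockout), DICER1 (99.5 and 169.9), AXL (40.0 and 64.3), the autophagy gene ATG12 (147 and 225) and OTUD4 (86.7 and 126). With the loss of CSNK1A1 these 5 differed by -2.46, -0.88, -1.78, -1.11 and -0.57. Some genes were higher in both comparisons, and the p53 targets MDM2 (255 and 378 CPM) and CDKN1A (143 and 359) were among them, with CEACAM1, COL17A1 and ZNF385A. Genes lower in both included SAT1, a polyamine enzyme, APOLD1 and the cholesterol genes LSS, SQLE and MVD. CSRP2, ARHGEF19, CITED4, EMP2 and PTPRF were lower without AGO2 and rose with the loss of CSNK1A1. Over all genes the 2 sets of differences had little relation (Pearson correlation 0.075 and Spearman rank correlation -0.011 across 11877 genes, which are not independent replicates).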

How the data were processed

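Polyadenylated RNA of 12 libraries was sequenced. Tools named in the submitters' processing notes are edgeR 3.8.6, featureCounts 1.4.6 and TopHat2 2.0.12, with build hg19. The 3 tables hold the authors' log2 fold change and mean log2 CPM, the authors' likelihood ratio score, and their p-values, raw and adjusted, per the file headers. Each deposited p-value equals the chi-square tail of its likelihood ratio within 1%. An SE was rebuilt by dividing the absolute log2 fold change by the root of its likelihood ratio, the variance of a difference as the mean of both squared SEs, and the calculation was tested on simulated data. The test of a difference assumes normal error and equal variance in the parental line and the 2 compared groups, and is approximate. Levels assume 4 equal groups, and a group with 3 reads was put at 0.0346 CPM. Members and the 34 gene lists were chosen with earlier results of these data known.

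Named were both targeted genes, all casein kinase 1, PP6 and microRNA biogenesis genes, the 6 members of each other list with the lowest p and its exceptions, the 20 largest changes and the 5 smallest p each way, and the 5 genes each way shared with the AGO2 knockout; those of opposite direction and other list members were chosen after their values were seen. Some genes under this rule are not reported here, but remain in the counts. 3' UTRs came from GENCODE 29 (12448 of 12756 genes matched) and promoters and microRNAs from RefSeq. Scripts ran in Python 3.11.15 (pandas 2.3.3, scipy 1.17.1, numpy 2.4.6, matplotlib 3.10.9).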

Additional observations from a re-analysis of the deposited data

How the results depend on the processing

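No paired analysis was possible because the files give group fold changes and no value per library, and for the same reason leaving out a replicate was not run and depth limits could not be set. Against 2152 genes higher and 1941 lower, a Student t with 8 degrees of freedom gave 1375 and 1092, the sum of both squared SEs 1134 and 851, and calls of at least 1 on the log2 scale 586 and 249. That size limit raised the share of higher genes among those called from 52.6% to 70.2%. The replication list went from 5 members called to 3 at an adjusted p under 0.01, with the Student t and with the sum, and to 0 with the size limit. With the sum the microRNA biogenesis list went from 6 to 3, the miR-200 targets from 9 to 5 and the mitosis genes from 12 to 5. The size limit left 0 microRNA biogenesis genes, 4 miR-200 targets, 8 p53 targets, 10 cholesterol genes and 0 mitosis genes. Counted in both directions together, the members called moved by over 1.5 times under no other alternative run for these lists or for the let-7, Wnt, epithelial and mesenchymal lists. Of the 24 other lists, 8 moved by that much with the Student t, 12 with the sum, 16 with the size limit, 3 at an adjusted p under 0.01 and 3 at a mean log2 CPM of at least 3. A filter on the 2 groups not compared, chosen after seeing the data, gave 2034 genes higher and 1924 lower and moved 2 of the 24. Of 207 called genes under the naming rule, 29 lost the call with the Student t, 41 with the sum, 19 at an adjusted p under 0.01 and 83 with the size limit, and 0 changed sign.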

Other observations

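Gene families looked up after their values were seen gave further patterns, as values only. Among the APOBEC3 cytidine deaminases, which edit viral DNA, APOBEC3F rose from 39.9 to 168 CPM, APOBEC3C from 63.7 to 194 and APOBEC3B from 10.5 to 19.2. APOBEC3D, APOBEC3G and APOBEC3H reached 7.5, 41.6 and 6.57 CPM, but passed the expression filter only through the compared groups, so their rises were favoured by it. These genes are neighbours and resemble each other, so reads may be shared between them. Among the keratins the simple epithelial KRT8, KRT18 and KRT19 rose, and so did KRT15, known from stratified epithelium, from 3.47 to 38.3 CPM. KRT23 went from 32.7 to 355 CPM and KRT80 from 4.82 to 53.5, while KRT10 and KRT222 were not called. KRT13 and KRT14 passed the filter only through the compared groups and are not counted. In the HOXB cluster 4 of 8 genes rose, against 18.1% over all genes. They were HOXB5 (1.13), HOXB6 (1.10), HOXB7 (0.60) and HOXB9 (1.22), while HOXB3, HOXB4, HOXB8 and HOXB13 were not called.

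Of 11 TNF receptor superfamily genes that passed the filter in the other groups too 7 rose and 2 fell. The falls were TNFRSF1A (-0.56) and TNFRSF18 (-0.92), the receptor of the ligand TNFSF18, whose gene was the largest fall. Genes of the NDUFA, NDUFB, NDUFC, NDUFS and NDUFV series, most of which encode subunits of respiratory complex I, leaned the other way. Of these 14 of 37 fell and 0 rose, with a median difference of -0.21, from NDUFS7 (-0.68) to smaller falls such as NDUFB11 (-0.27). Some falls lay near the threshold, such as NDUFB10 (approximate adjusted p = 0.0450). Of 8 PSMB proteasome subunits 3 fell and 0 rose. Over all genes tested 18.1% rose and 16.3% fell, and over those that passed the filter in the other groups too 17.4% and 16.5%. The family counts were not recomputed with the Student t or the sum. Any family picked for its values will look uniform, so these counts carry no test.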
